A study of Mus musculus with 7 samples.

Results

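Potassium channel genes that fast-spiking neurons use were followed in RNA-seq of mouse cortex. The 9 members, out of 23413 gene symbols with a count value, were the Kv3 alpha subunits Kcnc1, Kcnc2 and Kcnc4, the Kv1 alpha subunits Kcna1, Kcna2 and Kcna6, the beta subunits Kcnab2 and Kcnab3, and the silent alpha subunit Kcns3. They were chosen by symbol for their function, with the diet differences of these same libraries already known, so those differences are given here as a description without a test. Cortex came from 7 APP/PS1 mice [B6.Cg-Tg(APPswe,PSEN1dE9)85Dbo/Mmjax], a model of amyloid deposition in which the mouse prion promoter drives a mutant human amyloid precursor protein and a mutant presenilin. Both groups carry these transgenes, and wild-type mice were not analysed here. From 6 months of age, 4 mice ate a control diet (CD, called SD in the sample labels) with 74% of its energy from carbohydrate, 16% from fat and 10% from protein. The other 3 mice ate a ketogenic diet (KD) with less than 0.5% from carbohydrate, 90% from fat and 10% from protein. The mice lived in single cages, and 10 mg of frozen cortex per mouse was taken at 13 months, after 7 months on the diet.

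Voltage-gated potassium channels are built from 4 alpha subunits around a common pore and end the action potential by letting potassium out of the neuron. Kv3 channels open only at strongly depolarised voltages and close quickly, so parvalbumin interneurons, which carry many of them, can fire at high rates. Kv1 channels open at lower voltages and sit in axons, at the initial segment, beside the nodes of myelinated fibres and at terminals, where they limit repetitive firing. Cytoplasmic beta subunits bind Kv1 alpha subunits and assist their transport and inactivation. Kcns3 encodes Kv9.3, which forms no current alone and modifies Kv2 channels, and in cortex it is a known transcript of parvalbumin interneurons. Excitatory neurons also express Kv1, Kv3 and beta subunits, so the list is not private to a single cell type.

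The 7 alpha subunits among the members hold the same kind of pore. Shown here is a stretch of 60 coding bases around the selectivity filter, the loop that lets potassium through, because it is the part that the family shares and where short reads could be confused. Sequences are from the longest coding transcripts of GENCODE M21 (GRCm38, the same assembly as mm10), 5′ to 3′ on the coding strand, with the filter codons in capitals.
Kcnc1 (chr7:46427952-46428011, plus strand): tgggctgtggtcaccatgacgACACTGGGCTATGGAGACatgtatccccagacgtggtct
Kcnc2 (chr10:112456208-112456267, plus strand): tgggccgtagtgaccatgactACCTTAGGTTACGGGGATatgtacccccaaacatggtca
Kcnc4 (chr3:107447775-107447834, minus strand): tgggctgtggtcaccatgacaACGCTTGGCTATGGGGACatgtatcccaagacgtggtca
Kcna1 (chr6:126642204-126642263, minus strand): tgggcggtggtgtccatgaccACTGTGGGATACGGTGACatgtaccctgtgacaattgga
Kcna2 (chr3:107105203-107105262, plus strand): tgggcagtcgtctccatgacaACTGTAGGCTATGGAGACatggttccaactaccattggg
Kcna6 (chr6:126738623-126738682, minus strand): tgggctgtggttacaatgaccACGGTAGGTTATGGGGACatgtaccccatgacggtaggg
Kcns3 (chr12:11091551-11091610, minus strand): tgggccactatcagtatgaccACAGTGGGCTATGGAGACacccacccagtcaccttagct
Across these windows, Kcnc1 and Kcnc4 shared 54 of 60 bases (90.0%), while Kcnc2 and Kcns3 shared 33 of 60. Inside the 18 filter bases, Kcnc1 and Kcns3 shared 17 and Kcnc1 and Kcnc2 shared 11. Even so, no stretch of 50 bases, the length of a read, was shared between any 2 members. Kcnc1 shared 50 of its 9401 such stretches (0.532%) with other genes. Kcna6 shared 79 (1.33%) with Kcna5, Kcna2 shared 53 (0.447%) with genes outside the channel families such as Vmn1r60, and Kcnab2 shared 76 (1.33%) with the overlapping transcript Gm16334. The remaining 5 members shared none. Kcna6 and Kcnab3 each overlap an antisense gene (Gm26673 and Kcnab3os), Kcnab2 overlaps Nphp4 and Gm16333 on the opposite strand, and Kcns3 overlaps the pseudogene Gm48088. The strand setting of the counting is not given in the sources used here, so reads of these partners cannot be told apart from the members' own.

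The 9 genes lie on 7 chromosomes. Kcna1 and Kcna6 are neighbours on chromosome 6, 61.9 kb apart, with Kcna5 in the same cluster. Kcna2 and Kcnc4 both lie on chromosome 3, and Kcna2 is 63.1 kb from Kcna3 and 68.1 kb from Kcna10. Promoters are shown for 2 members, Kcnc1 and Kcna6, as the 250 bases before the RefSeq start (GRCm38.p6). Their diet differences had opposite signs over all 7 libraries, but the sign of Kcna6 is not settled. Its log2 fold change (KD minus CD) was 0.08 (SE 0.12), and -0.09 without KD replicate 1. Whether the promoter sequences bear on the diet differences was not tested. Capitals mark a GC box (GGGCGG, the letters bound by Sp factors) or a cyclic AMP response element half-site (TGACG), on either strand.
Kcnc1 promoter (chr7:46396218-46396467, plus strand): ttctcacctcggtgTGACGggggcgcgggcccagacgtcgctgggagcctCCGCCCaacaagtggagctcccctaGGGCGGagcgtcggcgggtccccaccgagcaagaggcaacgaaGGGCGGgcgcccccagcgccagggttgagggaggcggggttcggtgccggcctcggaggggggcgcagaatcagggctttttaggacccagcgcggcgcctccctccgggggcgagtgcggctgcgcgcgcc
Kcna6 promoter (chr6:126740675-126740924, minus strand): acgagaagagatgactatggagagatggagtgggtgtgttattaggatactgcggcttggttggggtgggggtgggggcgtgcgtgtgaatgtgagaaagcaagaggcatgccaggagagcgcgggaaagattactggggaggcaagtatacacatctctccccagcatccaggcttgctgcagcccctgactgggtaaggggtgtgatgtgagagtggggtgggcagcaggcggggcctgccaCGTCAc
Kcnc1 had 3 GC boxes and 1 half-site in 74.4% GC, and Kcna6 had 1 half-site and no GC box in 58.8% GC. RefSeq windows were at hand for 7 of the 9 members, 13 windows in all. A GC box was found in 6 of these 13 windows and in 32.7% of 32851 windows of all genes, and a half-site in 4 of 13 and in 17.8%. The windows are not separate promoters, since some members have several and some windows of Kcnc2 overlap. Counted by member, 5 of 7 had a GC box in a window and 4 of 7 a half-site. The share of all genes counted in this way was not computed. None of the 13 held the full element TGACGTCA, which contains the half-site, or a TATAAA box, which 1.55% and 12.4% of all windows held. The 2 kinds of letters do not overlap in the printed windows.

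The libraries held 22272883 to 36614954 counts, and members were read deeply, with 130 to 21701 counts per library. CPM below is the count divided by the TMM-scaled library total, given per 1000000 counts. All 9 members passed the low-count filter, as did 15881 genes in all. No gene had an adjusted p under 0.05 for KD against CD by edgeR's quasi-likelihood test (0%), and 506 (3.19%) had an unadjusted p under 0.05. By DESeq2 the counts were 0 and 644, and by limma-voom 0 and 446. KD replicate 3 stood apart by markers of tissue outside cortex. Its 8 ventral forebrain markers summed to 547 CPM, against 47.3 to 96.5 in the other libraries, although Otp was at no more than 0.0442 CPM anywhere. Hap1 gave 408 CPM of that sum, against 42.7 to 70.9 CPM in the other libraries. Lhx9, Gabrq, Baiap3, Ecel1 and Isl1 were also highest in KD replicate 3, while Nts was higher in CD replicate 4 (20.8 CPM against 15.4 CPM). CD replicate 4 had the highest summed hippocampal (164 CPM against 42.1 to 132), meningeal (244 against 30.8 to 117) and olfactory bulb markers (64.3 against 3.76 to 16.3). Wfs1 alone gave 146 CPM of that hippocampal sum. C1ql2 was also highest in CD replicate 4 (3.89 CPM), while Prox1 (8.82 CPM), Lct (1.66 CPM) and Spink8 (4.24 CPM) were not. For the hippocampal, meningeal and olfactory bulb sums, KD replicate 3 was second, at 132, 117 and 16.3 CPM. The remaining libraries were at most at 55.4, 63.8 and 8.92 CPM. In KD replicate 3, Wfs1 gave 115 CPM of the hippocampal sum. Xist was above 100 CPM in 2 CD and 2 KD libraries (replicates 1 and 2 of each diet), and the Y-linked Ddx3y in the remaining 3, which were CD replicates 3 and 4 and KD replicate 3.

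Of the 9 members, 8 had a log2 fold change (KD minus CD) below 0, as did 51% of all tested genes. The median was -0.33 over the members and -0.00329 over all tested genes. In 4 members, Kcnc1, Kcna1, Kcna2 and Kcns3, every KD library was below every CD library, where 2.07% of tested genes were. The rule chose the members with this contrast known, and these counts describe what was chosen. The order of size was Kcnab3, Kcns3, Kcna1, Kcna2, Kcnab2, Kcnc1, Kcnc4 and Kcnc2, and Kcna6 alone was above 0.

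**Figure D1:**
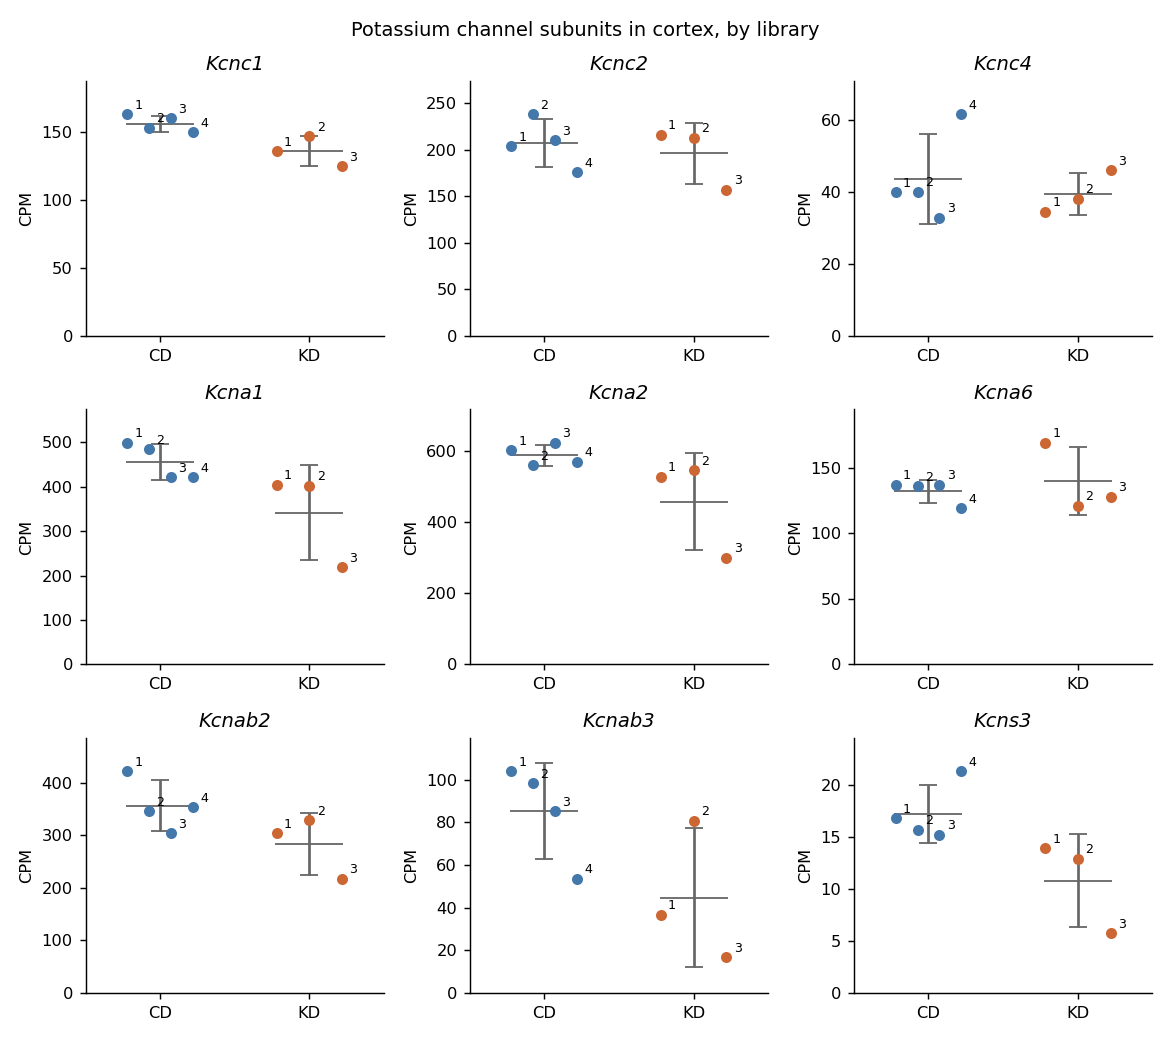
CPM on the y axis of each member in the 4 CD and 3 KD libraries (numbered points are replicates, the bar is the mean and the whisker 1 SD). KD replicate 3 is the lowest of the 7 libraries for 7 of the 9 members, with Kcna1 at 219 CPM and Kcnab3 at 16.8 CPM.

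The Kv3 subunits differed by -0.20 to -0.08 on the log2 scale. Kcnc1 encodes Kv3.1, the delayed rectifier most closely tied to fast spiking. It read 163, 153, 160 and 150 CPM in CD replicates 1 to 4 and 136, 147 and 125 CPM in KD replicates 1 to 3. The groups did not overlap, and the mean was 156 ± 6.06 CPM (SD, n = 4) in CD and 136 ± 10.9 CPM (SD, n = 3) in KD, a log2 fold change of -0.20 (SE 0.08). The nearest libraries of the 2 groups were CD replicate 4 and KD replicate 2. Kcnc2, which encodes Kv3.2 and is found in parvalbumin and somatostatin interneurons, read 204, 238, 210 and 176 CPM in CD and 216, 213 and 157 CPM in KD. Here the groups overlapped, with KD replicates 1 and 2 inside the CD range, and the log2 fold change was -0.08 (SE 0.14), and 0.05 without KD replicate 3. Kcnc4 encodes Kv3.4, a fast inactivating subunit of axons and terminals. It read 40.0, 40.1, 32.9 and 61.7 CPM in CD and 34.6, 38.2 and 46.1 CPM in KD. CD replicate 4 was far above the rest, all 3 KD values lay inside the CD range, and the log2 fold change of -0.14 (SE 0.21) became 0.07 without CD replicate 4. The summed level of the 3 genes was 387 to 431 CPM in CD and 387, 398 and 328 CPM in KD replicates 1 to 3.

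The Kv1 subunits split. Kcna1, which encodes Kv1.1 and is the gene of episodic ataxia with myokymia, read 499, 485, 421 and 422 CPM in CD and 405, 402 and 219 CPM in KD. Every KD library was below every CD library, KD replicates 1 and 2 by little and KD replicate 3 by much. The log2 fold change was -0.42 (SE 0.20), and without KD replicate 3 it was -0.18. Kcna2 encodes Kv1.2, the usual partner of Kv1.1 in axons. It had 603, 560, 624 and 571 CPM in CD and 529, 546 and 300 CPM in KD. As for Kcna1, the groups did not overlap and KD replicate 3 held the lowest value, at 50.9% of the CD mean. The log2 fold change was -0.36 (SE 0.19) with all libraries and -0.14 without KD replicate 3. Kcna6 encodes Kv1.6, which joins Kv1.1 and Kv1.2 in mixed channels. Its CPM was 137, 136, 137 and 119 in CD and 169, 121 and 128 in KD. KD replicate 1 was the highest of the 7 libraries, the other two KD values lay inside the CD range, and the log2 fold change of 0.08 (SE 0.12) became -0.09 without KD replicate 1.

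The beta subunits held the member with the largest difference. Kcnab2 encodes Kvβ2, the main beta subunit of brain Kv1 channels, and read 422, 346, 304 and 353 CPM in CD and 304, 329 and 217 CPM in KD. KD replicate 2 was inside the CD range and KD replicate 1 just below its lowest value, and the log2 fold change was -0.33 (SE 0.16). It was -0.17 without KD replicate 3. Kcnab3 encodes Kvβ3, and read 104, 98.5, 85.2 and 53.6 CPM in CD and 36.6, 80.7 and 16.8 CPM in KD. Its spread was wide in both groups, with a coefficient of variation of 26.5% in CD and 73.2% in KD. KD replicate 2 exceeded CD replicate 4, so the groups overlapped despite a log2 fold change of -0.93 (SE 0.47). That value was -0.54 without KD replicate 3 and -1.68 without KD replicate 2. The antisense gene Kcnab3os covers 2298 bases of this gene. Leaving Kcnab3 out moved the median over the members from -0.33 to -0.27.

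The silent subunit was low and separated. Kcns3 read 16.8, 15.7, 15.2 and 21.3 CPM in CD and 13.9, 12.9 and 5.75 CPM in KD. Every KD library was below every CD library, with CD replicate 4 the highest and KD replicate 3 the lowest. The log2 fold change was -0.66 (SE 0.28), and -0.37 without KD replicate 3.

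**Figure D2:**
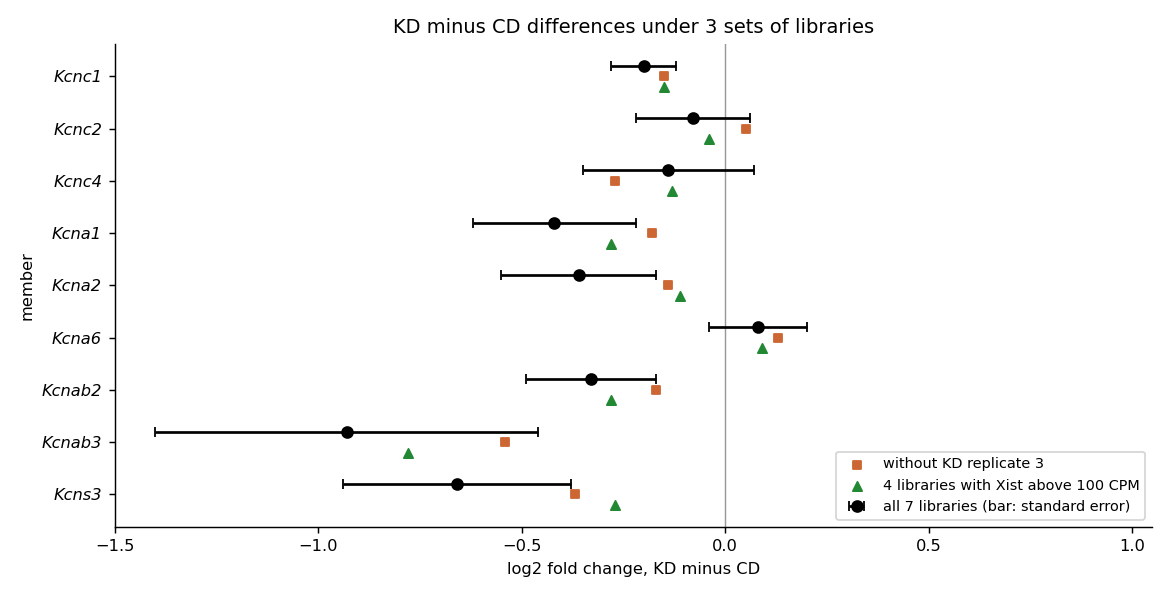
Log2 fold change, KD minus CD, of each member on the x axis, from all 7 libraries (black circles with standard error), without KD replicate 3 (squares) and from the 4 libraries with Xist above 100 CPM (triangles). Without KD replicate 3 the differences of Kcna1, Kcna2, Kcnab3 and Kcns3 lie nearer to 0 than with it, and Kcnc2 is at 0.05.

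The difference was carried unevenly by the KD libraries. Averaged over the 9 members, the log2 difference from the CD mean was 0.08, 0.03, -0.07 and -0.04 in CD replicates 1 to 4. It was -0.23, -0.13 and -0.80 in KD replicates 1 to 3. KD replicate 3 thus lay well away from the others. The averages of KD replicates 1 and 2 were also below those of all 4 CD libraries, but by less. In KD replicate 1 the single members ran from -1.17 to 0.36, and its average leans on Kcnab3, at 42.9% of the CD mean. An average without Kcnab3 was not computed. Without KD replicate 3, 7 of 9 members were below 0 and the median was -0.174. The same 4 members, Kcnc1, Kcna1, Kcna2 and Kcns3, still had both KD libraries below every CD library, where 5.26% of tested genes did. With CD replicate 4 left out as well, 8 of 9 were below 0, the median was -0.16, and Kcnab3 joined these 4 (8.05% of tested genes). Within the 4 libraries with Xist above 100 CPM, 8 of 9 members were below 0 with a median of -0.154, and in 7 members both KD libraries were below both CD libraries, where 21.3% of tested genes were. The other sex-linked group held only 1 KD library, KD replicate 3, and gives no value of its own.

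The summed markers of fast-spiking cells were also lowest in KD replicate 3. Pvalb, the calcium-binding protein that names these cells, read 110, 109, 67.4 and 73.4 CPM in CD and 65.0, 69.2 and 18.4 CPM in KD. KD replicate 3 was far below the rest, and KD replicate 2 lay inside the CD range. Of the 7 parvalbumin markers, 6 were lower in KD with a median log2 fold change of -0.55, and none passed an adjusted p of 0.05 in edgeR. When KD replicate 3 was left out, 6 were still lower and the median was -0.39, with Pvalb at -0.43 against -0.82 from all libraries. That fit set 2 KD libraries with Xist above 100 CPM against CD libraries both above and below that level. Within the 4 libraries with Xist above 100 CPM, Pvalb was at -0.7, with 65.0 and 69.2 CPM in KD against 110 and 109 CPM in CD. The 7 markers there ran from -1.02 (Syt2) to -0.1 (Tac1). Over all libraries, the summed level of the 7 markers was 220 to 334 CPM in CD and 127 to 210 CPM in KD, with none of the 7 at 0 in any library. Tac1 ran the other way in KD replicate 3, at 35.0 CPM against 9.32 to 21.5 CPM elsewhere. In the 7 general GABAergic markers, 3 were lower and 4 higher with a median of 0.03, and their summed level was 1070 to 1310 CPM in CD and 980 to 1180 CPM in KD. Without KD replicate 3, 5 were lower and 2 higher, and the median was -0.22. The median of the members relative to the mean of the parvalbumin list was 0.174, with 2 of 9 members below 0. Relative to the GABAergic list it was -0.33 and relative to the pan-neuronal list -0.302. These relative values use all 7 libraries and were not computed without KD replicate 3. With that library left out, the members' own median was -0.174, beside -0.22 for the GABAergic list. In bulk tissue, fewer fast-spiking cells and less RNA per cell cannot be told apart.

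Other cell types also differed between libraries. The 8 oligodendrocyte markers were all lower in KD (median log2 fold change -0.42), with sums of 1080 to 4200 CPM in CD and 1110 to 4110 CPM in KD. Leaving out KD replicate 3 brought their median to -0.03 (6 lower and 2 higher), and leaving out CD replicate 4 as well gave 4 lower and 4 higher. The 4 neurofilament genes were all lower in KD as well (median -0.30, sums of 530 to 730 CPM in CD and 440 to 618 CPM in KD). Their median was -0.18 without KD replicate 3, with Nefh at -0.31, Ina at -0.28, Nefl at -0.07 and Nefm at 0.02. The 7 pan-neuronal markers had a median of -0.10 (5 lower and 2 higher, and 4 lower and 3 higher without KD replicate 3), with sums of 7440 to 9340 CPM in CD and 7120 to 9190 CPM in KD, and CD replicate 4 and KD replicate 3 were the lowest of their groups. The 7 excitatory markers had a median of -0.26 (5 lower and 2 higher), and of 0.06 without KD replicate 3 (3 lower and 4 higher). Their sums were 1250 to 1910 CPM in CD and 1520 to 1930 CPM in KD. Neurod6, Tbr1, Cux2 and Fezf2 were lowest in KD replicate 3, while Slc17a7, Camk2a and Rorb were lowest in CD replicate 4. The part of these cell types and of dissection in the members' differences was not tested.

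**Figure D3:**
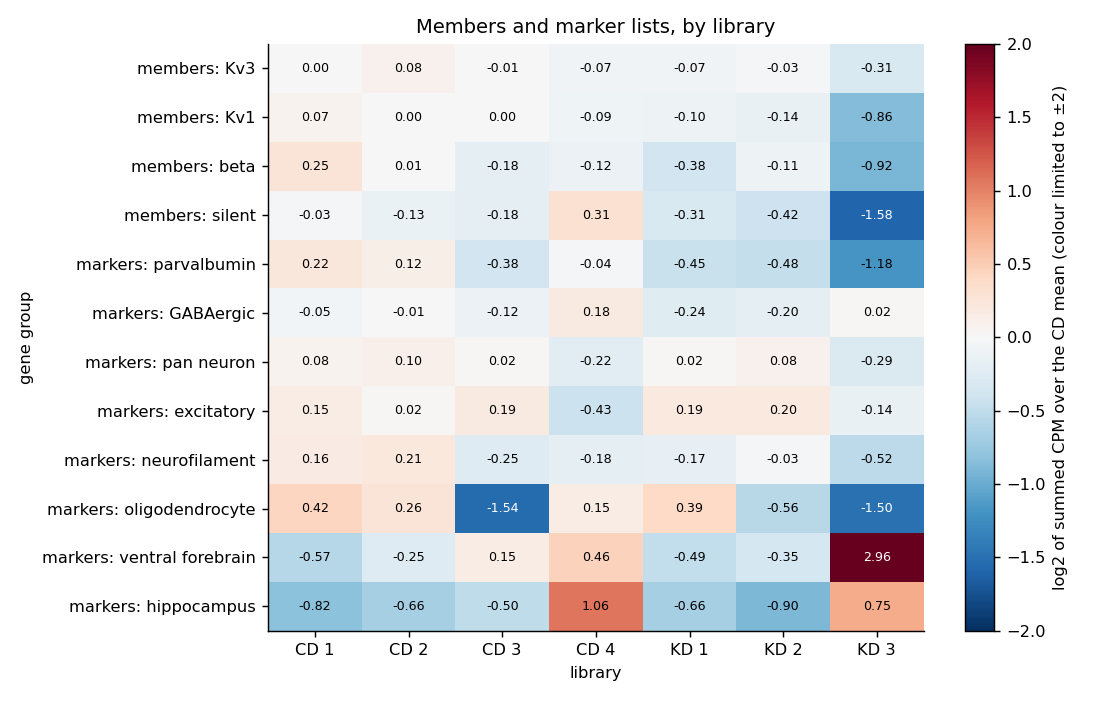
Log2 of the summed CPM of each gene group (rows) over its CD mean, in each library (columns). In KD replicate 3 the Kv1, beta and silent members are at -0.86, -0.92 and -1.58, the parvalbumin markers at -1.18 and the ventral forebrain markers at 2.96.

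Levels were compared between genes only per kilobase of exon. In CD the order was Kcna1 (95.5 ± 8.58 CPM per kb, SD, n = 4), Kcnab2 (63.9 ± 8.71), Kcna2 (49.5 ± 2.45), Kcnab3 (29.8 ± 7.89), Kcnc2 (29.0 ± 3.58), Kcna6 (22.3 ± 1.5), Kcnc1 (16.5 ± 0.64), Kcnc4 (11.9 ± 3.40) and Kcns3 (5.44 ± 0.882). The highest level was 17.6 times the lowest. The CD ranges of Kcnab3 and Kcnc2 overlapped, and so did those of Kcnc1 and Kcnc4, so neither pair can be ordered. The ranges of the other neighbours did not overlap. In KD the order was the same apart from Kcnab3, which went from place 4 to place 6 at 15.6 ± 11.4 CPM per kb (SD, n = 3). Per kilobase of coding sequence instead of exon, 5 members took another place, with Kcna2 first.

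**Figure D4:**
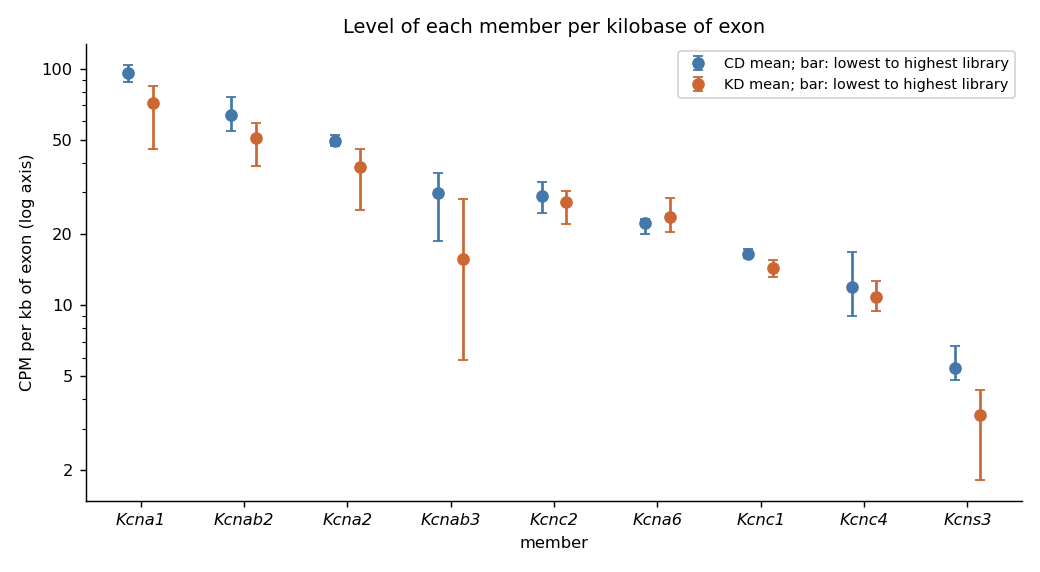
Level of each member in CPM per kb of exon (log axis), as the mean of each diet with a bar from its lowest to its highest library. In CD the members run from 95.5 for Kcna1 to 5.44 for Kcns3, and the KD range of Kcnab3 runs from 5.87 to 28.2.

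The members did not move as a block across libraries. Of the 36 pairs, 13 had a Pearson r of log2 CPM above 0.8 over the 7 libraries and 9 had an r below 0. Kcna1 was most like Kcna2 (r = 0.95, rho = 0.71), Kcnab2 (r = 0.93, rho = 0.86) and Kcns3 (r = 0.91, rho = 0.89). Kcnc1 was closest to Kcnab3 (r = 0.94, rho = 0.93). All 9 pairs below 0 held Kcnc4 or Kcna6, and these 2 ran against each other (r = -0.63, rho = -0.75). After the mean of each diet was taken out, 10 pairs were above 0.8 and 8 below 0. The 7 points include KD replicate 3, the library farthest from the others.

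Among all tested genes outside the members, Trim66 followed the members' mean most closely (r = 0.991 over 7 libraries, 0.83 without KD replicates 1 and 3, the 2 libraries farthest from the median). It read 60.7, 60.6, 54.5 and 58.1 CPM in CD and 51.6, 56.4 and 38.3 CPM in KD. Next were Ankrd9 (r = 0.986), Impa2 (r = 0.984), Fbxo47 (r = 0.983) and Pvalb (r = 0.982, and 0.92 without those libraries). With the diet means taken out, the closest were Ccng1 (r = 0.997), Mettl11b (r = 0.996), Tbc1d30 (r = 0.99), Epb4.1 (r = 0.989) and Adprm (r = 0.989). These genes were picked as the closest of all tested genes over 7 libraries, and the r values describe that choice.

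The other potassium channel genes listed here showed no common direction. Of 54 other genes listed, 47 passed the filter, with 21 lower and 26 higher in KD and a median log2 fold change of 0.01. None had an adjusted p under 0.05 in edgeR's quasi-likelihood test, and 1 had an unadjusted p under 0.05 (1 to 5 with 1 library left out, the most without KD replicate 2). It was Kcnn1, which encodes a small-conductance calcium-activated channel, with 22.3, 17.8, 16.1 and 21.1 CPM in CD and from 7.92 to 14.8 CPM in KD, KD replicate 3 the lowest. Its groups did not overlap, and the log2 fold change was -0.69 (SE 0.22, edgeR quasi-likelihood test, unadjusted p = 0.0126, adjusted p = 0.979).

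**Figure D5:**
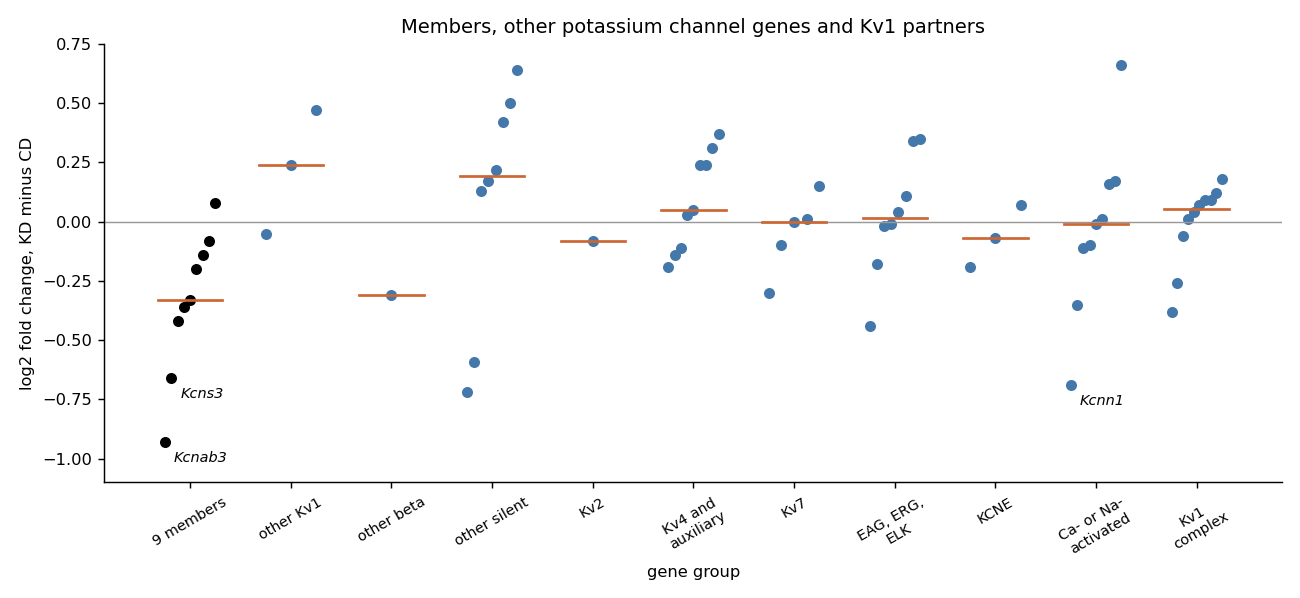
Log2 fold change, KD minus CD (y axis), of the 9 members, the other tested potassium channel genes by family and the Kv1 partner proteins (each point is a gene, the line the median). The members' median is -0.33, and the 47 other channel genes have a median of 0.01, with Kcnn1 at -0.69.

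Relatives of the members went both ways. Of the other Kv1 alpha subunits, Kcna3 had a log2 fold change of 0.24 (SE 0.18), Kcna4 of -0.05 (SE 0.27) and Kcna5 of 0.47 (SE 0.50), while Kcna7 and Kcna10 were at no more than 0.143 and 0.184 CPM in any library and were not tested. Without KD replicate 3, Kcna3 was at 0.08, Kcna4 at -0.34 and Kcna5 at -0.24, so the sign of Kcna5 rests on that library. Kcna4, whose channels inactivate quickly, was highest in CD replicate 4 (109 CPM) and KD replicate 3 (98.0 CPM), against 54.5 to 67.9 CPM elsewhere, and its log2 fold change was 0.19 without CD replicate 4. The beta subunit Kcnab1 was at -0.31 (SE 0.19), with CD replicate 4 at 203 CPM and the other libraries from 106 to 132 CPM. Without CD replicate 4 it was -0.10. Of the 9 other silent subunits, Kcns1 was at -0.59 (SE 0.33) and Kcng4 at -0.72 (SE 0.42). Above 0 were Kcns2 at 0.17, Kcnf1 at 0.22, Kcng1 at 0.64, Kcng2 at 0.42, Kcng3 at 0.13 and Kcnv1 at 0.50, and Kcnv2 was not tested. KD replicate 3 decided several of these values. Without it Kcng1 was at -0.23 and Kcng3 at -0.12, both now below 0, and Kcng2 at 0.13, Kcnf1 at 0.09 and Kcns2 at 0.10 were nearer to 0. Kcns1 was then at -0.34, Kcng4 at -0.33 and Kcnv1 at 0.62, so 4 of the 8 tested were lower and 4 higher. Without CD replicate 4, Kcnv1 was at 0.25 and Kcns2 at 0.07. Kcnb2, a Kv2 gene, was at -0.08 (SE 0.17), and at 0.06 without KD replicate 3.

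The RNA of proteins that hold Kv1 channels in the axon membrane was not lower as a group. Of 10 partner genes tested, 3 were lower and 7 higher in KD with a median of 0.06, and none had an unadjusted p under 0.05 in edgeR. Without CD replicate 4, 5 were lower and 5 higher, and the median was -0.02. Cntn2, a cell adhesion protein of the region beside the node, had the lowest value at -0.38 (SE 0.29). It read 195, 155, 116 and 193 CPM in CD and 170, 140 and 70.3 CPM in KD, and the groups overlapped. It was at -0.09 once KD replicate 3 was left out. Its partner Cntnap2 (Caspr2) was at 0.12 (SE 0.08) and the gene of the secreted protein Lgi1 at 0.09 (SE 0.09). Epb4.1l3 had the next lowest value after Cntn2, at -0.26 (SE 0.14), and was at -0.13 without KD replicate 3.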

How the data were processed

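RNA-seq of cortex from 4 CD and 3 KD APP/PS1 mice was analysed. Libraries were made with a stranded total RNA kit and read in 50-bp paired-end mode. Reads were checked by the authors with FASTQC, aligned to mm10 with STAR and counted per gene with the HTSeq counting in STAR. The deposited values are raw counts, 1 for each gene symbol in each mouse, neither scaled nor pooled. Tool versions, annotation and strand setting are not given in the sources used here. Diet and replicate were taken from the sample labels. The labels give separate mice, and no 2 replicates agreed within sampling noise (the chi-square of their counts, per gene, was 16.1 to 68.3, and noise alone would give 1).

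The counts were fitted with edgeR 4.0.16 in R 4.3.3 over all 15881 genes that passed filterByExpr (99.97% of all counts), with TMM scaling (factors 0.9783 to 1.038), estimateDisp, glmQLFit with robust=TRUE and glmQLFTest for KD against CD, without a covariate. P-values were adjusted by Benjamini-Hochberg over all tested genes. The script was checked on simulated counts. Members and gene lists were chosen with earlier results of these data known, so no p is given for the members, and lists are described by counts and medians beside those of all genes. The genes named are the members, the listed genes of their families, other potassium channel and Kv1 partner genes with an unadjusted p under 0.05, marker genes where a list is described, and the 5 genes most like the members' mean over all libraries and after removing diet means. Kcnb2, Cntn2, Cntnap2, Lgi1 and Epb4.1l3 were named after their values were seen. A few listed genes are not reported here and were left out of the list counts and sums. Correlations used log2 CPM with a prior count of 2. Of the listed genes, 2 were matched through older symbols. Coordinates, exons and coding sequences are from GENCODE M21 (GRCm38, as mm10), and promoter windows from RefSeq (GRCm38.p6). Alternatives were RLE or library size scaling, 2 other filters (at least 1 count, and at least 1 CPM in 3 libraries), DESeq2 1.42.0, limma-voom (limma 3.58.1), a replicate block, a covariate (log2 CPM of Xist) and fits with each library in turn removed. The libraries with Xist above 100 CPM alone, and CD replicate 4 and KD replicate 3 both left out, were added after the data were seen.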

Additional observations from a re-analysis of the deposited data

Results flagged for a closer look

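Among the 4 CD libraries, the 9 members and the summed levels of 17 marker lists, 26 values in all, were screened for 1 library set apart from the other 3. Dixon's 95% critical value was passed by 4 of them, where chance gives 1.3. Kcna6 was flagged because CD replicate 4, at 119 CPM, lay below the other 3 (136 to 137 CPM), with a gap of 0.906 of the group's range on the log2 scale. The oligodendrocyte sum was flagged for CD replicate 3, at 1080 CPM against 3470 to 4200 CPM in the others (gap 0.859 of the range). CD replicate 4 was flagged again as the highest for the thalamic sum, at 184 CPM against 53.8 to 62.1 CPM (gap 0.883), and for the hippocampal sum, at 164 CPM against 44.5 to 55.4 CPM (gap 0.832). Of the thalamic 184 CPM, Slc17a6 alone gave 161 CPM, and Prkcd, the next, 14.1 CPM. Of the hippocampal 164 CPM, Wfs1 alone gave 146 CPM. The same library had the highest Kcnc4 and Kcns3 and the lowest Kcnab3 and Kcnc2 of the CD group, with gaps of 0.685, 0.709, 0.698 and 0.498, which did not pass. The 3 KD libraries were too few to be examined in this way.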

How the results depend on the processing

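The number of genes past an adjusted p of 0.05 stayed at 0 under every alternative but Xist as a covariate, which gave 1. When 1 library was left out, the count at an unadjusted p under 0.05 ran from 256 (CD replicate 1 left out) to 1161 (CD replicate 3 left out). It was 1036 with Xist as a covariate and was 1531 in the 4 libraries with Xist above 100 CPM. None of the other potassium channel genes listed passed under any alternative. The median of the members was below 0 in 19 of 20 alternatives and was 0.174 relative to the parvalbumin list. Leaving out 1 library gave -0.454 to -0.174, the last without KD replicate 3. The number of members with every KD library below every CD library was 4 to 6 when 1 library was left out and 7 in the libraries with Xist above 100 CPM. Log2 fold changes that crossed 0 were those of Kcnc4 (-0.27 to 0.07 over the libraries left out, and 0.07 with the replicate block), Kcna6 (-0.09 to 0.17) and Kcnc2 (-0.16 to 0.05). The causes were not tested. Replicates 1 to 3 carry the same numbers in both diets. Deviations of same-numbered libraries from their group means correlated at 0.251, 0.195 and 0.098, so the numbers were not taken to pair the mice, although each CD library correlated best with the KD library of its own number. With the replicate block 0 genes passed the adjusted threshold, 923 had an unadjusted p under 0.05, the median of the members was -0.346 and 6 members had each KD library below the CD library of its number. The share of all tested genes was not computed for this last count, so it has no background to be read against. Counts of 130 or more per member make counting error small, so 3 KD mice limit the precision more than depth does.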
